A study of Sorghum bicolor with 9 samples.

Results

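Among the 40082 loci assembled from sorghum anther RNA, 6967 had no gene ID, and 257 of these were abundant in young anthers. These 257 loci were chosen by their own values. Each had no gene ID, exceeded 10 FPKM (fragments per kilobase of transcript, scaled to the mapped fragments of the library) in its highest stage, and was highest at meiosis (A1, 131 loci) or in microspores (A2, 126 loci). A further 258 loci with no gene ID exceeded 10 FPKM but were highest in mature pollen (A3), and 6100 loci with a gene ID met the same 2 limits as the 257. The levels below therefore describe the selected loci, and no test was made on them.

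Whole anthers of Sorghum bicolor cultivar M35-1, grown in an open field, were collected at 3 stages: meiosis to tetrads (A1), tetrads to microspores (A2) and mature pollen (A3). Throughout, a level at meiosis, in microspores or in pollen is the level in whole anthers of that stage, wall tissue included. Each stage had 3 libraries of total RNA prepared with a strand-specific kit, 9 in all, and the authors deposited 1 combined FPKM per locus and stage. No value thus carries a replicate error, the number of reads behind it is unknown, and the strand of a locus is not in the table. The sample labels carry 2 project codes, and all 3 A3 libraries share their code with 1 library each of A1 and A2, so that a difference of A3 from the earlier stages and a difference between project codes cannot be told apart in the combined values.

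A strand-specific total RNA library records transcripts whether or not an annotation knows them, and an assembler gives each such transcript a locus of its own. Loci outside an annotation can be missed protein-coding genes, extended ends of known genes, antisense transcripts, transposons or long non-coding RNAs. Young anthers of grasses are known for the last of these. In maize and rice, long non-coding RNAs from clustered genomic loci accumulate around the onset of meiosis and are cut, after recognition by a microRNA, into phased small interfering RNAs, with the tapetum (the nursing inner layer of the anther wall) as a main site for part of them. Small RNAs were not measured in these libraries, and no genome sequence of the files' build was used, so no locus is assigned to any of these classes.

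The stage labels were checked on 15 marker genes that the study itself listed as candidates, which are therefore no independent evidence. The 5 meiocyte markers, DMC1, ZEP1, HEI10, OsMSH5 and PAIR3 (recombination and synapsis genes), summed to 183, 140 and 56.3 FPKM in A1, A2 and A3, each highest in A1. The study's list also holds other meiosis genes, and some of them peak later. By the study's grouping XRCC3 peaks in A2, and copies of MEL2 and RPA1c peak in A3. The 5 tapetum markers (TDR, TIP2, CYP703A3, OsACOS12 and OsNP1) summed to 891, 2112 and 133 FPKM, with 4 of 5 highest in A2. They too were picked from a longer list. By the study's grouping WDA1, whose rice counterpart it links to fatty acid synthesis in the tapetum and anther walls, peaks in A3. LTPL45/YY1, taken as the microspore marker because the study lists it for uninucleate microspores, had 1486, 2006 and 1.35 FPKM. It was already high in A1 and so does not separate A1 from A2. The 4 pollen markers summed to 0.124, 0.0793 and 214 FPKM, and 3 of them were listed at 0 in A2. Since whole anthers mix germ cells with the tapetum and other wall cells, fewer cells of a type and less RNA per cell cannot be told apart. Whether the cell types' shares had a part in the levels of the 257 loci was not tested.

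Across the 257 loci, the median level was 19.0 FPKM at meiosis, 21.6 FPKM in microspores and 9.64 FPKM in pollen. Together they held 6.94%, 6.33% and 2.51% of all FPKM in A1, A2 and A3. One locus, MSTRG.7870, made up 3.7% of all FPKM in A1 and 1.8% in A2, and the other 256 loci held 3.24%, 4.52% and 2.51%. Above 100 FPKM stood 41 loci, and above 1000 FPKM 5 loci. At the limit of selection, MSTRG.23663, MSTRG.2339 and MSTRG.30693 were just inside with 10.03, 10.07 and 10.12 FPKM in their highest stage, and MSTRG.22873, MSTRG.30226 and MSTRG.11291 just outside with 9.82, 9.97 and 9.98 FPKM.

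The most abundant of all 40082 loci in both early stages was one with no gene ID. MSTRG.7870 had 23615 FPKM in A1, 12108 FPKM in A2 and 8.69 FPKM in A3. It was assembled on chromosome 2 within chr2:65407521-65413917 (Phytozome v3.0.1), a locus of 6397 bp that it shares with Sobic.002G270500, whose own values were 18.2, 16.7 and 39.96 FPKM. RefSeq, a later annotation, places the protein-coding gene LOC8059029 over 84.2% of this span, and LOC8054876 also overlaps it. Which part of the 6397 bp the transcript covers is not in the table. The next locus, 20 bp away, is Sobic.002G270400 at chr2:65407147-65407500, the LTPL45/YY1 marker, named as a lipid transfer protein-like gene, with 1486, 2006 and 1.35 FPKM. Both were all but lost in A3, but MSTRG.7870 was higher in A1 than in A2 and LTPL45/YY1 was higher in A2 than in A1. Sobic.002G270300, on the other side of LTPL45/YY1, had 23.95, 22.2 and 12.5 FPKM, and Sobic.002G270600 had 2.29, 2.14 and 0.594 FPKM, so that the extreme level did not extend to these neighbours.

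The other loci above 1000 FPKM took different courses. MSTRG.10249, a locus of 742 bp on chromosome 3, had 1865 FPKM in A1, 9989 FPKM in A2 and 7052 FPKM in A3. MSTRG.22034, of 345 bp on chromosome 6, had 1044, 2453 and 2126 FPKM. Both were lower at meiosis and remained high in pollen. MSTRG.24715, of 214 bp on chromosome 7, had 3504, 3061 and 3504 FPKM, and its A1 and A3 values lay within 1 FPKM of each other, so that its place among loci highest in A1 rests on a very small margin. MSTRG.11121, of 1071 bp on chromosome 3, had 1167 FPKM in A1, 87.0 FPKM in A2 and 62.8 FPKM in A3. It was the only one of the 5 that was lower in both later stages than at meiosis by more than 2-fold with most of the drop between A1 and A2.

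**Figure D1:**
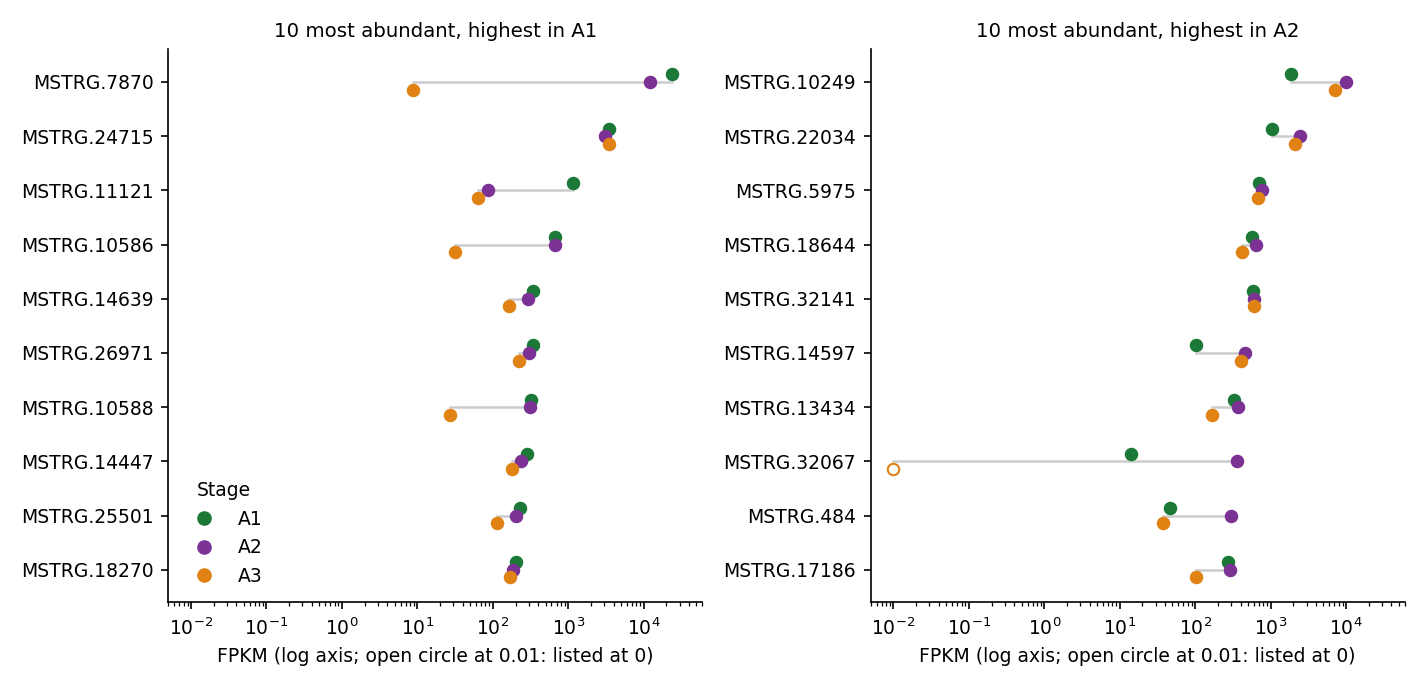
FPKM (log axis) in A1, A2 and A3 of the 10 most abundant loci highest in A1 (left) and the 10 highest in A2 (right), 1 combined value per stage and no error bars. MSTRG.7870 spans 23615 to 8.69 FPKM and MSTRG.32067 is listed at 0 in A3, whereas MSTRG.24715, MSTRG.5975 and MSTRG.32141 hardly differ between stages.

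Below 1000 FPKM, the most abundant loci were mostly short, and several were steady. MSTRG.5975 (203 bp, the shortest length among the 257, shared with MSTRG.3081) had 703, 761 and 675 FPKM, MSTRG.32141 had 578, 606 and 602 FPKM, and MSTRG.18644 had 561, 647 and 422 FPKM. MSTRG.13434 had 330, 366 and 165 FPKM, and MSTRG.14639, which shares a span of 3147 bp with Sobic.004G087000, had 337, 291 and 164 FPKM. MSTRG.26971, MSTRG.14447, MSTRG.25501 and MSTRG.18270 had between 203 and 337 FPKM in A1 and between 114 and 223 FPKM in A3. A pair on chromosome 3 behaved otherwise. MSTRG.10586 (488 bp) had 661, 659 and 31.6 FPKM, and MSTRG.10588 (483 bp), within the same 7685 bp, had 324, 315 and 27.1 FPKM. Their A1 and A2 levels were nearly equal, and A3 was lower in both by a similar factor, at log2 A3/A2 of -4.36 and -3.51. Many of these loci are shorter than 500 bp, where a given FPKM rests on fewer fragments than in a long locus and the length correction is least certain.

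Many of the loci were lower in pollen. A3 was at least 2-fold lower than A1 in 125 loci (48.6%), against 12.6% of all 37599 loci with a value above 0, and at least 2-fold lower than A2 in 120 loci (46.7%), against 12.8% (log2 values taken after adding 0.5 FPKM). The rule chose loci highest in A1 or A2, so an excess of this direction follows from the choice and nothing is read from it. Among the 6100 loci with a gene ID under the same 2 limits, which shared that choice, A3 was at least 2-fold lower than A1 in 35.3% and than A2 in 32%. In 110 of the 257 loci (42.8%) A3 was at least 2-fold lower than both earlier stages, against 29.2% of the loci with a gene ID. In 111 (43.2%) all 3 stages lay within 2-fold, against 61.2% of the loci with a gene ID.

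Between A1 and A2 most loci hardly moved. In 218 loci (84.8%) the 2 stages were within 2-fold, against 95.9% of the loci with a gene ID under the same limits. In 90 loci they were within 10% of each other, so for these the stage called highest rests on a small margin without a replicate error. A2 was at least 2-fold higher than A1 in 30 loci (11.7%, against 3.31% of all loci) and at least 2-fold lower in 9 loci (3.5%, against 0.989%). The shares among the 257 loci also exceeded those of the loci with a gene ID under the same limits, 3.21% higher and 0.918% lower.

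The 30 loci higher in microspores than at meiosis differed in what followed in pollen. In 12 loci, A2 was at least 2-fold higher than A1 and A3 at least 2-fold lower than both. MSTRG.32067, 218 bp on chromosome 10, had 13.9 FPKM in A1 and 362 FPKM in A2 and was listed at 0 in A3. Its neighbour Sobic.010G259400, 105 bp away, had 2.80 FPKM in A1 and 122 FPKM in A2 and was also listed at 0 in A3. MSTRG.17144, 1477 bp on chromosome 4, had 3.70, 170 and 0.305 FPKM, the largest log2 A2/A1 of all, 5.35, while Sobic.004G331400, 75 bp away, had 212, 135 and 99.9 FPKM and thus no peak in A2. MSTRG.5508 (0.0609, 12.2 and 0.139 FPKM) and MSTRG.24158 (0.0974 and 10.2 FPKM, listed at 0 in A3) were not among these 12 but were likewise found almost only in A2, with log2 A2/A1 of 4.50 and 4.16. In a further 8 loci, A2 and A3 were both at least 2-fold higher than A1, with a median of 49.6, 246 and 160 FPKM. In 7 of these A3 kept 59.4% or more of the A2 level, and in MSTRG.2339 (0.146, 10.07 and 0.808 FPKM) it kept 8.02%. MSTRG.25831, 239 bp on chromosome 8, had 10.1, 243 and 144 FPKM and lay 341440 bp from the nearest locus with a gene ID, and MSTRG.14597 had 102, 451 and 399 FPKM. The remaining 10 loci, MSTRG.5508 and MSTRG.24158 included, met neither pattern. Among them MSTRG.484 (46.7, 301 and 37.0 FPKM) was higher in A2 than in either other stage, and MSTRG.32460 (7.23, 17.3 and 14.9 FPKM) kept most of its A2 level in A3.

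Loci that were strongest at meiosis and low afterwards were fewer. In 7 loci both A2 and A3 were at least 2-fold lower than A1. Besides MSTRG.11121 these included MSTRG.32355 on an unplaced scaffold with 124, 5.002 and 2.91 FPKM, MSTRG.15150 on chromosome 4 with 89.2, 4.85 and 8.24 FPKM, and MSTRG.9853 on chromosome 3 with 18.5, 1.13 and 0.842 FPKM. MSTRG.25915 on chromosome 8 had 11.1 FPKM in A1, 0.0117 FPKM in A2 and 4.87 FPKM in A3, so its low point was in A2. Of the 9 loci that A2 held at 2-fold or more below A1, 4 lay on unplaced scaffolds, although only 8 of the 257 loci did.

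The level left in pollen separated the loci into those that were all but lost and those that remained. In 65 loci (25.3%) A3 was below 2% of the highest stage, against 4.87% (297 of 6100) of the loci with a gene ID under the same limits. In 169 loci A3 kept 20% or more, and only 23 lay between these limits. The limit of 2% was set after the values were seen, and little turns on it, since 63 loci were already below 1%. The 65 lost loci had a median of 13.8 FPKM in A1, 16.5 FPKM in A2 and 0.0223 FPKM in A3, and in 57 of them A3 was below 0.1 FPKM. In 7 loci A3 was listed at 0. MSTRG.7870, at 8.69 FPKM, was the only one of the 65 above 0.305 FPKM in A3. Of the 65, 27 were highest in A1 and 38 in A2. In 14 of them A2 was at least 2-fold higher than A1, and in 0 of them it was at least 2-fold lower.

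**Figure D2:**
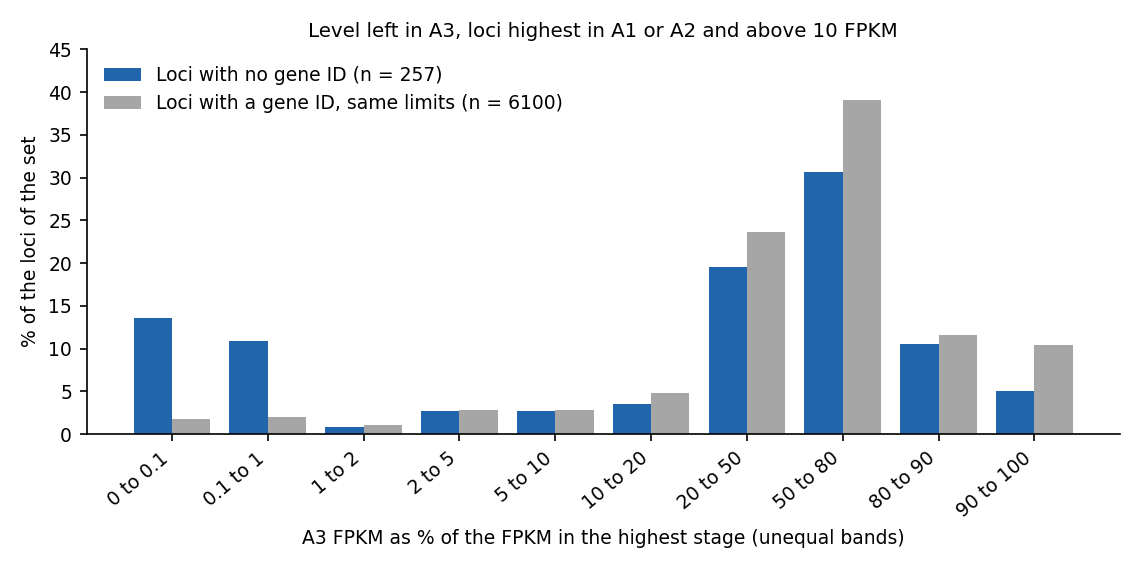
Share of loci (in % of each set) by the FPKM left in A3 as % of the highest stage, in bands of unequal width, for the 257 loci with no gene ID and the 6100 loci with a gene ID under the same limits. The bands below 1% hold 13.6% and 10.9% of the 257 loci, against 1.77% and 2.02% of the loci with a gene ID, and the bands between 1% and 20% together hold 9.73% and 11.5%.

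The lost loci were long. Length was not used by the rule, and the locus column gives the genomic span with introns. The 65 loci below 2% had a median length of 3261 bp (interquartile range 1476 to 4394 bp), and 53 of them (81.5%) spanned 1 kb or more, against a median of 557 bp and 31.4% for the 169 loci that kept 20% or more. By length, 3 of 38 loci under 300 bp were lost in A3, 3 of 57 from 300 to under 500 bp, 6 of 50 from 500 to under 1000 bp, 17 of 43 from 1000 to under 3000 bp and 36 of 69 of 3000 bp or more, the last being 52.2%. Without loci that share their span with a gene ID, the longest class had 33 of 52 (63.5%). The loci with a gene ID did not show the same order, since those below 2% had a median of 3115 bp and the others 6419 bp. The highest FPKM ran the other way, with a median of 54.3 FPKM in loci under 300 bp and 16.5 FPKM in loci of 3000 bp or more.

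**Figure D3:**
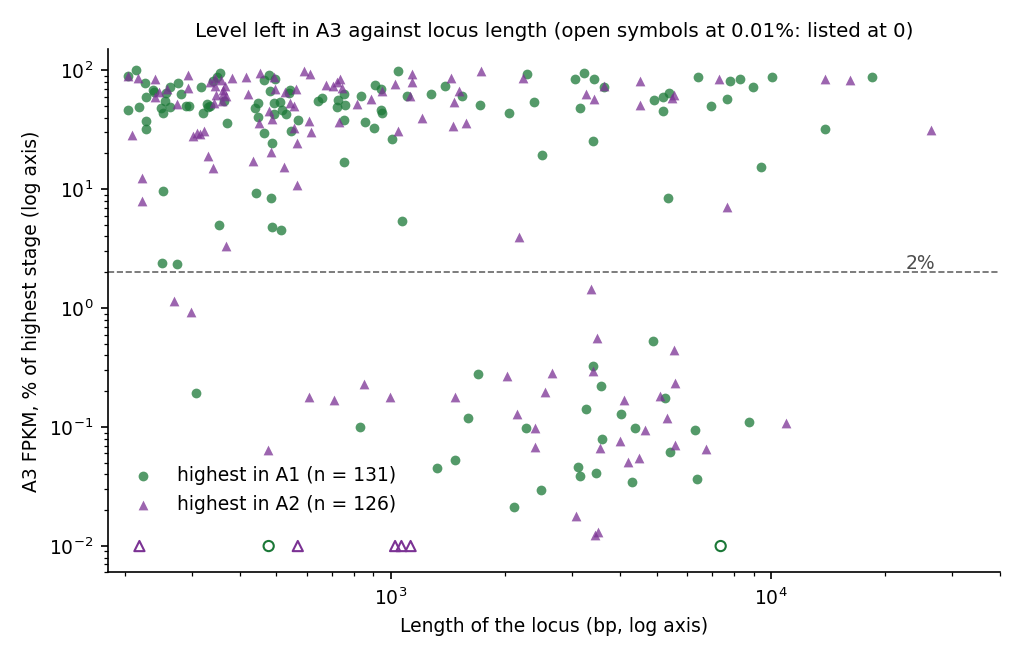
Length of each of the 257 loci in bp against A3 FPKM as % of the highest stage, both on log axes, with circles for loci highest in A1 and triangles for loci highest in A2. Points below the dashed line at 2% lie mostly at 1000 bp or more (53 of 65), and the 7 open symbols are listed at 0 in A3.

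Examples of these long lost loci follow, chosen after their values were seen except where stated. MSTRG.26513 (3102 bp, among the 5 largest drops to A3) had 95.9, 71.5 and 0.0441 FPKM, and lay 366 bp from Sobic.008G150700 with 12.0, 13.1 and 6.66 FPKM. MSTRG.14413 (4307 bp, chromosome 4) had 62.5, 52.5 and 0.0218 FPKM. MSTRG.19437 (3465 bp, chromosome 5) had 51.6, 47.7 and 0.0211 FPKM, and MSTRG.1586 (3508 bp, chromosome 1) had 37.1, 44.1 and 0.00582 FPKM. All of these had similar levels in A1 and A2. Among the short lost loci, MSTRG.23208 (307 bp, chromosome 7, also among the 5 largest drops) had 140, 138 and 0.270 FPKM, and MSTRG.23210 (4199 bp), in the same 9359 bp, had 8.09, 14.7 and 0.00744 FPKM. At the opposite end, the 5 loci with the smallest drop in log2 value kept at least 95% of their level in A3. Besides MSTRG.24715 and MSTRG.32141 these were MSTRG.2576 (11.3, 15.7 and 15.6 FPKM), MSTRG.19929 (23.0, 19.2 and 22.7 FPKM) and MSTRG.23641 (14.6, 13.6 and 13.8 FPKM). MSTRG.25339 (60.9, 64.5 and 61.4 FPKM), close behind in log2 value, kept 95.2%.

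The lost loci were spread unevenly over the genome. Chromosome 5 held 17 of them among its 29 selected loci, chromosome 8 held 13 of 31, chromosome 4 held 11 of 31 and chromosome 10 held 7 of 21, against 3 of 32 on chromosome 1, 1 of 11 on chromosome 6 and 0 of 27 on chromosome 3. Chromosomes 4, 5, 8 and 10 thus carried 48 of the 65 lost loci (73.8%), against 64 of the 192 others (33.3%) and 38.7% of all loci with no gene ID. These 4 chromosomes were picked for their counts, so the shares are a description. The loci with a gene ID did not follow the same chromosomes, as 27.6% of the 297 below 2% lay on these 4. The lost loci were also near chromosome ends. Measured against the last locus of each chromosome, 44 of 65 (67.7%) lay in the outer 10% at either end. This compares with 32.9% of those that kept 20% or more and 29.6% of all loci with no gene ID. Of the loci with a gene ID that were below 2%, 49.5% lay there, close to the 47.7% of all loci with a gene ID under the same limits.

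**Figure D4:**
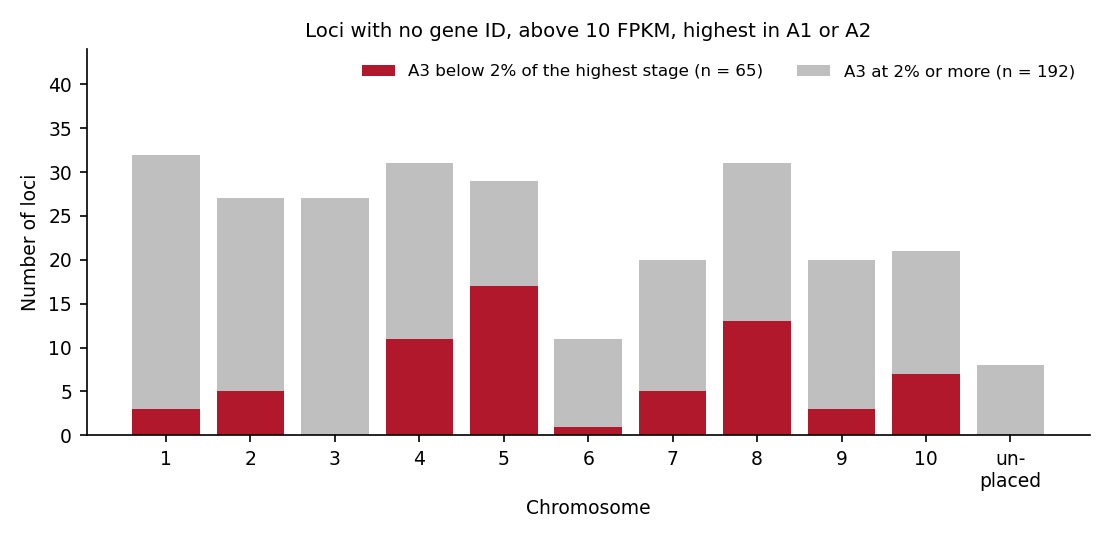
Number of the 257 loci on each chromosome and on unplaced scaffolds, split into loci with A3 below 2% of the highest stage (red) and the others (grey). Red makes up 17 of 29 on chromosome 5 and 0 of 27 on chromosome 3.

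Several of the lost loci lay side by side. Of the 257 loci, 31 had another within 10 kb, in 14 groups. The same count was not made for all loci with no gene ID, so whether this number is usual is not known. In 9 groups with 21 loci every locus was below 2% in A3, in 5 groups none was, and in 0 groups were the 2 kinds mixed. Loci with no gene ID below the 10 FPKM limit were not counted in these groups. Of the lost loci 32.3% were in such a group, against 4.73% of those that kept 20% or more. Neighbouring loci may be pieces of 1 transcript that the assembly split, which was not tested, so they are not independent loci.

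The only group of more than 2 lay at chr8:61331575-61361705 and held 5 lost loci in 30131 bp. MSTRG.26756 (4394 bp) had 33.9, 28.6 and 0.0332 FPKM. MSTRG.26759 (1476 bp) had 27.7, 18.7 and 0.0148 FPKM, and MSTRG.26761 (6331 bp) had 24.5, 20.3 and 0.0230 FPKM. These 3 and MSTRG.26764 (2114 bp; 47.0, 30.1 and 0.0101 FPKM) were somewhat higher in A1, and MSTRG.26762 (5581 bp; 12.6, 14.9 and 0.0352 FPKM) was somewhat higher in A2. The one locus with a gene ID among them, Sobic.008G180000, took the opposite course, with 0.0880, 0.0635 and 0.822 FPKM. On the near side of the group, Sobic.008G179900 had 84.9, 50.4 and 102 FPKM, and on the far side Sobic.008G180200 had 8.58, 10.6 and 2.81 FPKM, so neither flanking gene was lost in pollen. Another pair, MSTRG.26806 and MSTRG.26807, lay within 8682 bp nearer the same chromosome end, with 13.7, 12.2 and 0.0300 FPKM and 6.72, 10.8 and 0.156 FPKM.

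**Figure D5:**
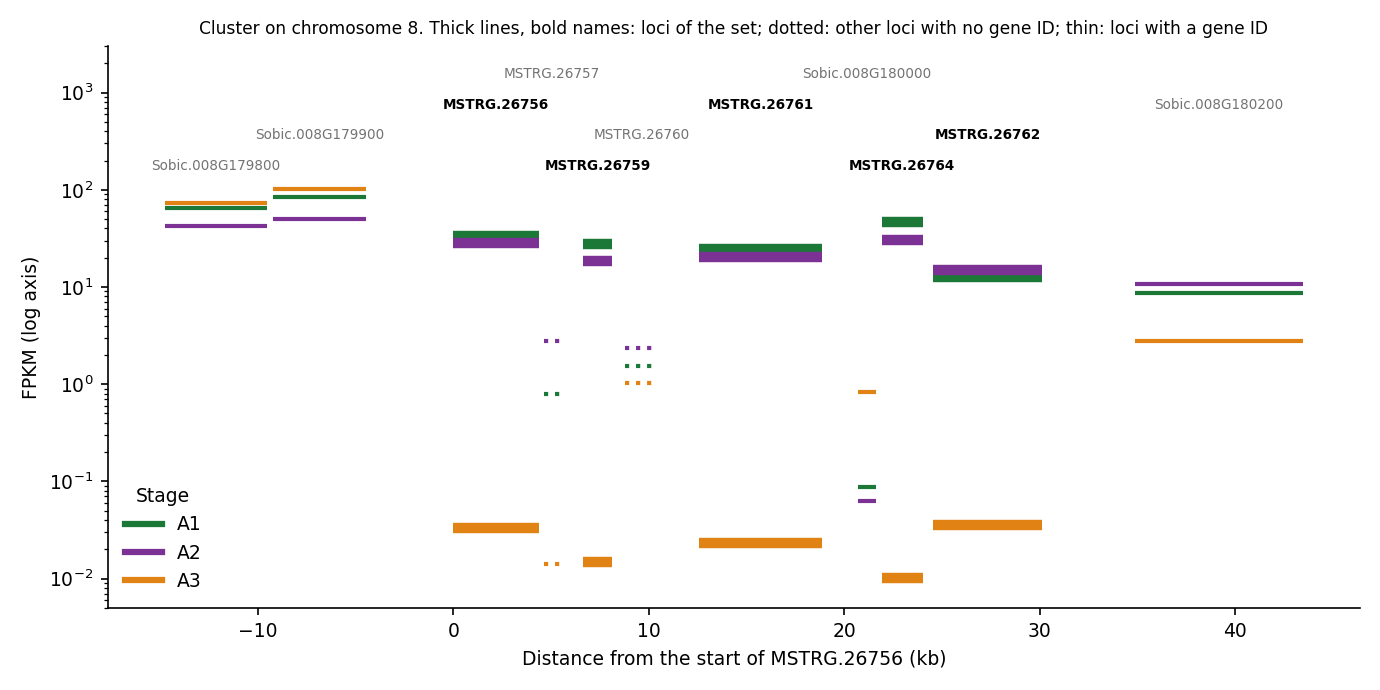
FPKM (log axis) of loci along a stretch of chromosome 8, by distance in kb from the start of MSTRG.26756, with a line per stage as long as the locus. The 5 loci of the group (thick lines) have 12.6 to 47.0 FPKM in A1 and 0.0101 to 0.0352 FPKM in A3, whereas Sobic.008G180000 between them is highest in A3.

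Most of the 257 loci lay close to annotated genes without sharing a span with them, and closer than other loci with no gene ID. Within 5 kb of a gene ID lay 72.9%, against 57.5% of all loci with no gene ID. Only 19 (7.39%) shared their span with a gene ID, close to the 7.48% of all loci with no gene ID. With these, 88 of the 251 loci on sequences that carry a gene ID (35.1%) lay within 1 kb of one, against 26.8% of all loci with no gene ID. Outside shared spans, the median distance to the nearest gene ID was 2186 bp, against 4135 bp for all loci with no gene ID. Over 100 kb from any gene ID lay 7 loci. Farthest was MSTRG.18640 on chromosome 5, 466241 bp away, with 20.9, 20.8 and 9.64 FPKM, followed by MSTRG.15150 (341743 bp), MSTRG.25831 (341440 bp), MSTRG.27803 (283174 bp; 33.7, 23.6 and 10.8 FPKM) and MSTRG.18666 (137175 bp; 2.47, 12.6 and 0.116 FPKM). The 5 longest spans, from 13838 to 26358 bp, all belonged to loci sharing a gene ID's locus (MSTRG.27635, MSTRG.9837, MSTRG.26328, MSTRG.27561 and MSTRG.13035), and their lengths are those of the shared locus. Of these, MSTRG.26328 was the most abundant, with 200, 201 and 166 FPKM, while Sobic.008G134300 in the same 16137 bp stayed at or below 0.0489 FPKM.

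Nearby genes shared the course of the loci in part. Of neighbours with a gene ID at 1 to 1000 bp and with at least 1 FPKM in some stage, 26 of 39 (66.7%) were also highest in A1 or A2, against 30 of 67 (44.8%) farther off within 10 kb, 10 of 18 beyond, and 6 of 13 (46.2%) that share a span. Of all 19898 loci with a gene ID and at least 1 FPKM in some stage, 54% were highest in A1 or A2, so the shares lay on both sides of the overall one and did not follow distance throughout. Of the lost loci with such a neighbour at 1 to 1000 bp, 0 of 13 had a neighbour highest in A3. Farther off within 10 kb these were 6 of 18, and beyond 2 of 2. The neighbour was itself below 2% in A3 for 4 of 13 at 1 to 1000 bp, 2 of 18 farther off within 10 kb and 0 of 2 beyond. No share over all loci with a gene ID stands beside these small counts, so they are a description. Besides MSTRG.32067, the 4 were MSTRG.19188 (21.6, 24.02 and 0.00296 FPKM) with Sobic.005G168500 (36.3, 39.3 and 0.238 FPKM), MSTRG.19565 (18.5, 22.5 and 0.0150 FPKM) with Sobic.005G213900 (1.40, 0.6497 and 0.0132 FPKM), and MSTRG.29934 (12.4 and 17.3 FPKM, listed at 0 in A3) with Sobic.010G048350 (1.44 and 1.96 FPKM, listed at 0 in A3). All 3 lost loci that share a span with a gene ID had partners highest in A3, among them MSTRG.14366 (25.4 and 16.5 FPKM, listed at 0 in A3) with Sobic.004G062000 (1.23, 0.774 and 4.10 FPKM). For MSTRG.29549 the margin was very small, since its partner Sobic.010G007400 had 61.7, 58.3 and 62.9 FPKM. Without read strand or transcript ends, reads of a neighbour and of the locus itself could not be separated further. Of the study's candidate genes, 2 lay within 1 kb of one of the 257 loci. One was LTPL45/YY1. The other was MEL2 (Sobic.007G164101), whose rice counterpart is needed for germ cells to enter meiosis on time, with 2.26, 2.27 and 0.189 FPKM, and 424 bp from it MSTRG.24282 had 49.9, 49.0 and 30.3 FPKM.

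A later annotation covered some of the loci. RefSeq's gene table for sorghum (assembly NCBIv3), whose coordinates met those of the files (744 locus starts equal, against at most 180 at any shift of up to 3 bp), had a gene overlapping 49 of the 249 loci placed on chromosomes. Of the 33 that do not share a locus with a gene ID, 15 overlapped a protein-coding gene, 15 a long non-coding RNA, 2 a pseudogene and 1 a tRNA. Overlap was by position only, since the strand is not in the table. It was not counted for all loci with no gene ID, so whether 49 of 249 is usual for such loci is not known. Neither a gene ID nor a RefSeq gene was found for 197 loci. Among the 65 lost loci, 6 overlapped a RefSeq long non-coding RNA and 4 a protein-coding gene. The 6, namely MSTRG.1586, MSTRG.1502, MSTRG.14733, MSTRG.19445, MSTRG.19565 and MSTRG.27081, were covered by that RNA over 5.09% to 34.3% of their span, whereas the other 9 loci with a long non-coding RNA, which all kept 20% or more in A3, were covered over 52.1% to 96.5%. MSTRG.27081, the longest lost locus at 10961 bp on chromosome 9, had 14.9, 18.9 and 0.0207 FPKM. Outside the lost group, MSTRG.12038 (over LOC110433431, a long non-coding RNA) had 44.8, 179 and 119 FPKM, and MSTRG.17186 (over LOC110434859, a pseudogene) had 275, 288 and 103 FPKM.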

How the data were processed

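Whole-anther RNA of 3 stages (A1, A2, A3; 3 libraries each, grouped by the sample labels) was sequenced by the authors. Their steps were adapter and quality trimming (AdapterRemoval), rRNA removal (Bowtie2 2.2.9), STAR alignment to Phytozome v3.0.1, assembly and quantification (StringTie 1.3.3b) and stage comparisons (Cuffdiff). The deposited table gives FPKM with the replicates of a stage merged by the authors, so depth and replicate error are not known from them and no test was run.

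Values were read with python 3.11.15, numpy 2.4.6, pandas 2.3.3 and matplotlib 3.10.9. The loci, lists and limits were chosen with earlier results of these data known. Log2 values used FPKM + 0.5, a fold of at least 2 was counted, and shares were set beside those of all 37599 loci above 0 or of loci with a gene ID under the same limits. Starts are the deposited ones plus 1. Gaps, clusters (within 10 kb), folds and scalings were tested on simulated data. Loci were named by fixed lists: the 10 most abundant per stage, the 5 with the most and least change between A1 and A2 and to A3, the 5 longest, the 5 farthest from a gene ID, clusters of 3 or more, the 3 on either side of 10 FPKM, and those within 1 kb of a candidate gene. Others are stated as chosen after seeing values, or were named as examples of a shape or a RefSeq overlap in the same way. Alternatives were other FPKM limits, pseudocounts, scalings, fold limits, distances and length limits. Sequences were not used here.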

Additional observations from a re-analysis of the deposited data

How the results depend on the processing

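Of 39 alternatives, 33 moved a count by less than 1.5 times. The number of loci was 447 with a limit of 5 FPKM and 143 with a limit of 20 FPKM, in place of 257. At a 4-fold limit 79 loci were lower in A3 than A1, against 125 at 2-fold. Within 5 kb of a gene ID lay 183 loci, and 57 lay within 1 kb of a gene ID with at least 1 FPKM, against 88. None was shorter than 200 bp, since the table holds no shorter locus with no gene ID, and 38 were shorter than 300 bp. Median-of-ratios scaling gave 260 loci (256 shared) and quantile normalization 288 (257 shared). The lost loci numbered 63 to 72 under the other limits, which were chosen after seeing the data, and 62 without loci sharing a span with a gene ID. No paired analysis was possible because replicates are combined in the table. Leaving out replicates, a replicate block and sequence classes were not run. Many of the highest values belong to short loci, where the length correction of FPKM is least certain. The number of reads behind each value is not known.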

Other observations

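Loci just below the selection behaved alike in part. Of 1501 loci with no gene ID that were highest in A1 or A2 at 1 to 10 FPKM, 289 (19.3%) were below 2% of their highest stage in A3. Their median length was 861 bp, against 803 bp for the others, so the length difference seen above 10 FPKM was small here. On chromosome 5 they numbered 45 of 196, on chromosome 8 29 of 125, on chromosome 10 27 of 115 and on chromosome 4 23 of 146. The share on chromosome 4 was below the overall 19.3%, and the shares on the other chromosomes named were not far above it. The concentration on these chromosomes seen above 10 FPKM was thus much weaker here. At these levels 2% is at most 0.2 FPKM, where the precision of the table's values is unknown.

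The 8 loci on unplaced scaffolds differed from the rest in their balance between A1 and A2. MSTRG.32272 (34.3, 7.12 and 9.04 FPKM in A1, A2 and A3), MSTRG.32434 (33.6, 3.07 and 5.73 FPKM), MSTRG.32281 (16.8, 1.89 and 11.6 FPKM) and MSTRG.32355 were lowest in A2 or A3 and highest in A1. MSTRG.32291 (2.63, 26.0 and 2.81 FPKM), MSTRG.32460 (7.23, 17.3 and 14.9 FPKM) and MSTRG.32372 (4.44, 11.2 and 2.30 FPKM) were highest in A2. MSTRG.32389 (15.8, 21.1 and 18.0 FPKM) was within 2-fold in all stages.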
